A study of Homo sapiens with 6 samples.

Results

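10 heat shock genes were followed among the 50868 genes of the deposited table. 7 of them (HSPA6, HSPA1A, HSPA1B, DNAJB1, DNAJA4, BAG3 and HSPH1) are known to be strongly inducible by stress, and 3 (HSPA8, HSP90AA1 and HSF1) were set against them as a comparison. The members were selected by name with this contrast already known, so their differences between the groups are a description, and no test outcome of theirs is read as evidence. RNA sequencing of total RNA was done in Huh7, a human hepatoma cell line. 3 libraries came from cells given the plasmid PLC5-CIR carrying hsa_circ_0098181, a circular RNA made from exons of SOX5 (overexpression), and 3 from cells given the control plasmid (control). Both groups had been transfected with Lipofectamine 2000, and RNA was taken 48 hours later, so every library came from transiently transfected cells of a single line. Nothing in the labels says that the replicates were separate cultures, and p-values then measure only the spread between these samples, which may be technical.

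The heat shock response is the cytosolic program against misfolded protein. HSF1, its main transcription factor, binds arrays of short inverted repeats, the heat shock elements, and drives chaperones of the HSP70 family, their HSP40 co-chaperones that deliver clients and trigger ATP hydrolysis, and the nucleotide exchange factors of the HSP110 and BAG families. Cells at rest rely on constitutive relatives such as HSPA8, and tumour cells often keep part of the inducible set on. HSP90AA1 is placed here in the comparison group, although it is known as the stress-responsive of the cytosolic HSP90 genes.

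Library totals ran from 11130902 to 14138262 counts. The mitochondrial share of the counts was 6.32% to 7.04% with overexpression, 9.29% in the first control replicate, which stood apart, and 6.71% and 6.94% in the others. SOX5, which checks the labels, was at 1905, 2396 and 2012 CPM (gene counts scaled to a common library size by TMM) with overexpression and at 41.8, 34.4 and 31.3 CPM in the controls. Gene counts cannot separate the circle from linear SOX5 RNA. All 10 hepatocyte markers were at 1 CPM or more, and their summed level was 31617 to 34342 CPM with overexpression and 30721 to 36631 CPM in the controls. Of 8 markers of immune, endothelial, stromal and biliary cells, ACTA2, COL1A1 and KRT7 were under 1 CPM, and the summed level of the 8 was 193 to 210 CPM against 184 to 216 CPM. The other 5 were at 1 CPM or more. KRT19 was highest, at 129 ± 9.21 CPM with overexpression and 124 ± 23.0 CPM in the controls (mean ± SD, n = 3). PECAM1 followed at 54.9 ± 0.606 CPM and 53.7 ± 6.20 CPM, and CD68, COL1A2 and PTPRC were lower. In bulk samples, fewer cells of a type and less RNA per cell cannot be told apart.

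The promoters of the inducible genes are shown first. Heat shock genes are known as HSF1 targets, so heat shock elements were likely in genes chosen by these names. Their presence is given as a description. The sequences came from the RefSeq promoter table (GRCh38.p14, 250 bases before to 50 after each start site), which held 9 of the 10 genes. Capitals mark every match to 2 adjoining inverted units, GAANNTTC or TTCNNGAA. The HSPA6 stretch lies at chr1:161524290-161524539 (plus strand), HSPA1A at chr6:31815293-31815463 (plus), HSPA1B at chr6:31827488-31827734 (plus) and DNAJB1 at chr19:14518421-14518647 (minus).
HSPA6: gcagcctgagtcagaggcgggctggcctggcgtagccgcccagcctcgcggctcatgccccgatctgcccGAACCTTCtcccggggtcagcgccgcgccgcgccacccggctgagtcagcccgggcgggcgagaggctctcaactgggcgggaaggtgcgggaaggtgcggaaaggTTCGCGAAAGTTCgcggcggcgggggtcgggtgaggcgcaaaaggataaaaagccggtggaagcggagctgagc
HSPA1A: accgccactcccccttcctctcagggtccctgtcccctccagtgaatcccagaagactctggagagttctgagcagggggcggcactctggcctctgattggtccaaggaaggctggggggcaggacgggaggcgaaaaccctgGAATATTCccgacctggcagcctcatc
HSPA1B: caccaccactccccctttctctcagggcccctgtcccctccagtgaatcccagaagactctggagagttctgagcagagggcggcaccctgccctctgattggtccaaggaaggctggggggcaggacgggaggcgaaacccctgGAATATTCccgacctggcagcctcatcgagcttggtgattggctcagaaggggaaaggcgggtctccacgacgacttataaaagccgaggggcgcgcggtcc
DNAJB1: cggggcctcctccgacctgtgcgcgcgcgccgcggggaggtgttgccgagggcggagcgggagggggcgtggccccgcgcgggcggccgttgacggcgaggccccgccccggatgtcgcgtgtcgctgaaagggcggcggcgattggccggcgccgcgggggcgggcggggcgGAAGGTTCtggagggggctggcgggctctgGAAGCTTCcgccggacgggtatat

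In HSPA6 a pair of overlapping matches formed an array of 3 units, TTCNNGAANNTTC, starting 74 bases before the start site. HSPA1A and HSPA1B, neighbours on chromosome 6, each had 1 match, at 106 and 105 bases before their start sites, and the shared stretch was identical at 164 of 171 aligned bases (95.9%). The DNAJA4 and DNAJB1 promoters shared a run of 15 bases around their nearest match. For the comparison with HSPA8 and HSP90AA1, windows of 30 bases are given, at chr15:78264499-78264528 (DNAJA4, plus strand), chr11:123062171-123062200 (HSPA8, minus) and chr14:102087112-102087141 (HSP90AA1, minus), with the capitals on the match nearest the start site for DNAJA4, on the nearest array of 3 units for HSPA8 and on the only such array for HSP90AA1. The HSPA8 and HSP90AA1 windows lie in a UTR that GENCODE 29 annotates for other transcripts of these genes.
DNAJA4: gtctccttgcgGAAGCTTCcgccggcgccg
HSPA8: gcgggccccTTCTGGAAGGTTCtaagatag
HSP90AA1: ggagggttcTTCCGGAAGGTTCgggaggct

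Searched on both strands, 2 units were found in promoters of 5 of the 7 inducible genes and of both comparison genes in the table, and not in those of BAG3 and HSPH1. Over promoters, since some genes have several, that was 8 of 14, against 13.5% of all 35116 promoters in the table. HSPA1A and HSPA1B, nearly identical there, were counted separately. The array of 3 units, which contains the 2-unit matches, was in 1 of the 7 inducible genes (HSPA6) and in both HSPA8 and HSP90AA1. Over promoters that was 1 of 11 for the inducible and 2 of 3 for the comparison genes, against 0.490% of all promoters. Thus the longer array did not separate the inducible from the comparison genes. The absence of a match says only that these letters are not in the window.

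All 10 genes were lower on average with overexpression, with the larger differences among the inducible genes. The fitted log2 fold change (overexpression minus control, edgeR) had a median of -0.63 over the 7 inducible genes and of -0.14 over the 3 comparison genes, beside 0.0023 over the 15055 genes tested. It was negative for all 10, and for 7454 of all genes tested. The 3 overexpression values lay below all 3 control values for 8 of the 10, namely the 7 inducible genes and HSP90AA1, while 6.5% of all genes did so. The same 8 had an unadjusted p under 0.05 in that direction, beside 3.08% of all genes. None of the 10 was called by edgeR's quasi-likelihood test at an adjusted p under 0.05, where 0.0399% of all genes were called. DESeq2 called 4 (HSPA6, HSPA1A, HSPA1B and DNAJB1), beside 8 genes higher and 20 lower over the same 15055 genes. Since the genes were chosen on this contrast, nothing is read from these counts.

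**Figure D1:**
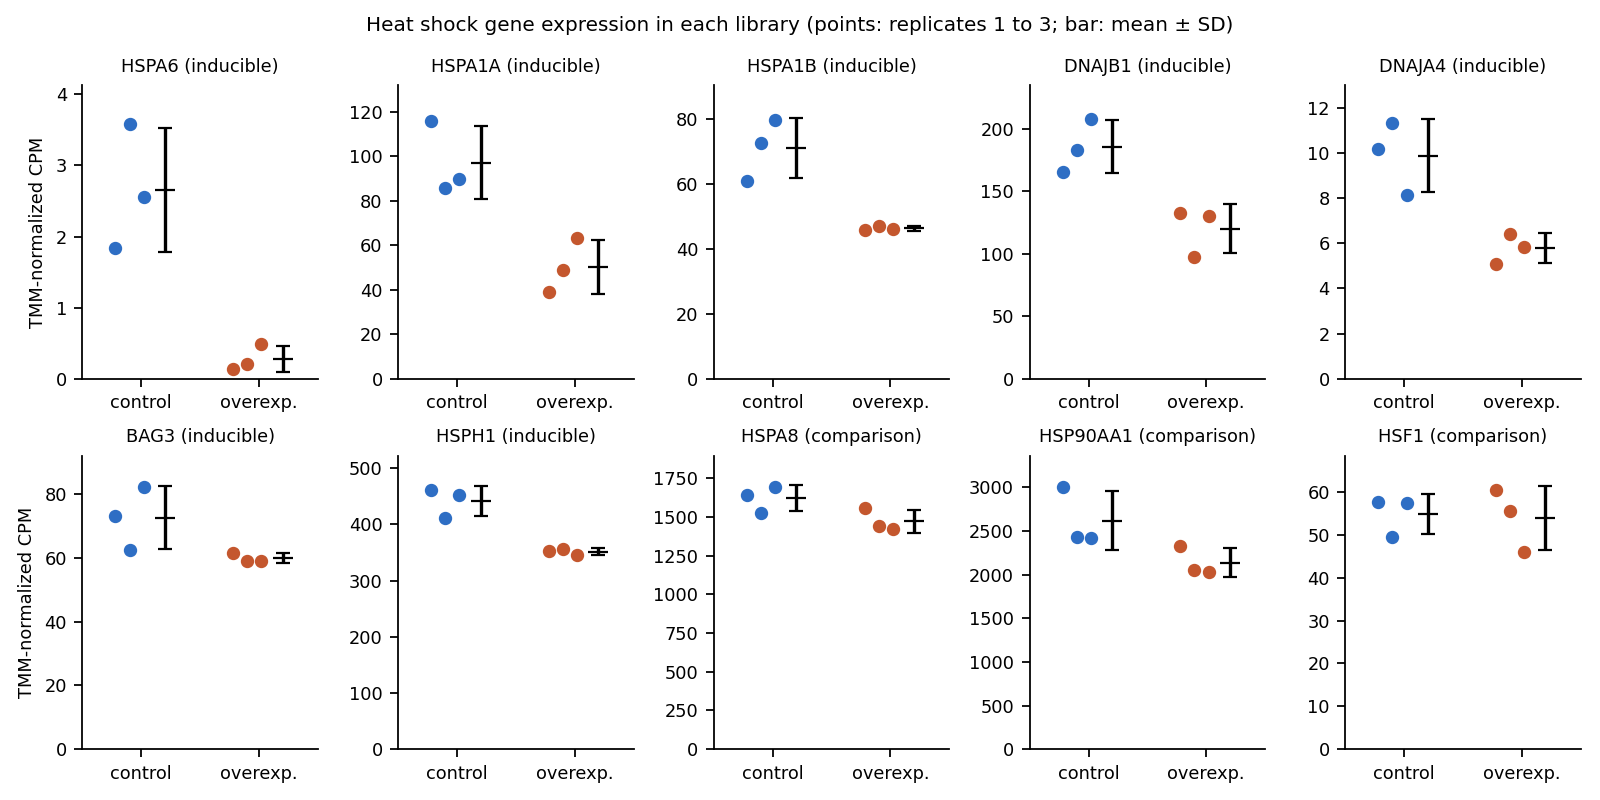
CPM on TMM-scaled library sizes (y axis, from 0) of each gene in the 3 control and the 3 overexpression libraries; points are libraries and the bar is the mean ± SD. The groups do not overlap for the 7 inducible genes and HSP90AA1, and overlap for HSPA8 and HSF1.

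HSPA6 (ENSG00000173110, chromosome 1, 161524540 to 161526910, plus strand), like the other 9 a protein-coding gene, encodes HSP70B', an HSP70 that is nearly silent in unstressed human cells. The overexpression libraries held 2, 3 and 6 counts, in the order of their replicate numbers as throughout, and the control libraries 20, 42 and 31. On the CPM scale these were 0.142, 0.214 and 0.485 against 1.85, 3.58 and 2.55. The groups stood well apart, with the lowest control 3.81-fold above the highest overexpression library. The fitted log2 fold change was -3.24 ± 0.47 (SE), and only 2 of the 15055 genes had a lower one. HSPA6 passed the count filter (minimum count 10) through the controls only. Such a filter favours a wide gap in genes near the floor, so gap and rank are given as a description. The summed counts of 11 and 93 gave a ratio per library size of 9.86 (exact 95% interval 5.27 to 20.4, counting error only), so the size of the difference is loosely fixed. HSPA7, a pseudogene sharing 1326 of the 2341 31-base words of HSPA6, held 6 counts over all libraries. RP11-25K21.6, on the same strand over all 2371 bases of HSPA6, held 0 counts in every library. How the counting treated reads in this overlap is not given in the sources used here, and its part in the HSPA6 counts was not tested.

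HSPA1A (ENSG00000204389, chromosome 6, 31815464 to 31817946, plus strand) and HSPA1B (ENSG00000204388, chromosome 6, 31827735 to 31830255, plus strand) encode the main stress-inducible HSP70. HSPA1A was at 38.9, 48.7 and 63.1 CPM with overexpression and at 115.9, 85.7 and 89.6 CPM in the controls, a log2 fold change of -0.95 ± 0.19. For HSPA1B the values were 45.7, 47.1 and 46.1 CPM against 61.0, 72.6 and 79.5 CPM, a log2 fold change of -0.62 ± 0.11. Neither gene overlapped between the groups. Control replicate 1 was the highest control for HSPA1A and the lowest for HSPA1B.

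The transcripts of this pair share much of their sequence. 1822 of the 2476 31-base words of HSPA1A (73.6%) are also in HSPA1B, so the split of reads between them is uncertain, and how the authors' counting treated such reads is not given in the sources used here. HSPA1A took 46.0%, 50.8% and 57.8% of the summed counts with overexpression and 65.5%, 54.1% and 53.0% in the controls. These shares overlapped between the groups. The sum does not depend on the split, and it was 96.5 ± 12.3 CPM with overexpression and 168 ± 9.38 CPM in the controls (mean ± SD, n = 3), without overlap.

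DNAJB1 (ENSG00000132002, chromosome 19, 14514770 to 14529770, minus strand) encodes the inducible HSP40 that works with HSP70. It was at 132, 97.4 and 130 CPM with overexpression and at 166, 183 and 208 CPM in the controls, a log2 fold change of -0.63 ± 0.14. DNAJA4 (ENSG00000140403, chromosome 15, 78264086 to 78282196, plus strand), another HSP40, was far less abundant. Its values were 5.10, 6.42 and 5.82 CPM against 10.2, 11.3 and 8.15 CPM, a log2 fold change of -0.77 ± 0.19. Both were lower in every overexpression library than in any control. The strand setting of the counting is not given in the sources used here, and both genes overlap a gene on the opposite strand. TECR, over 12686 bases of DNAJB1, was at 83.8 ± 7.30 CPM with overexpression and 83.9 ± 2.23 CPM in the controls. WDR61, over 4362 bases of DNAJA4, was at 32.0 ± 3.11 CPM and 29.1 ± 5.17 CPM (mean ± SD, n = 3), and the groups of both neighbours overlapped.

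BAG3 (ENSG00000151929, chromosome 10, 119651370 to 119677819, plus strand) encodes the co-chaperone that links HSP70 to selective autophagy, and HSPH1 (ENSG00000120694, chromosome 13, 31134974 to 31162388, minus strand) an HSP110 exchange factor. BAG3 was at 61.7, 59.2 and 58.9 CPM with overexpression and at 73.1, 62.4 and 82.2 CPM in the controls, a log2 fold change of -0.28 ± 0.11. Its groups came close to touching, with the lowest control 1.01-fold above the highest overexpression library. HSPH1 was at 353, 357 and 345 CPM against 462, 412 and 453 CPM, a log2 fold change of -0.33 ± 0.08. Both were the smallest differences among the inducible genes.

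Among the comparison genes, HSPA8 (ENSG00000109971, chromosome 11, 123057489 to 123063230, minus strand), the constitutive HSP70, was at 1556, 1438 and 1418 CPM with overexpression and at 1643, 1526 and 1693 CPM in the controls. Its groups overlapped, with a log2 fold change of -0.14 ± 0.09. HSP90AA1 (ENSG00000080824, chromosome 14, 102080738 to 102139699, minus strand) was at 2329, 2049 and 2033 CPM against 3004, 2427 and 2424 CPM, without overlap. Its log2 fold change of -0.29 ± 0.11 lay between those of BAG3 and HSPH1, so the inducible and the comparison genes did not form separate ranges. 4 pseudogenes of the HSP90AA family held 3184 counts over all libraries beside 177293 for HSP90AA1, and 17 of HSPA8 held 190 beside 115976. HSP90AB1, the constitutive cytosolic HSP90 and not a member, was at 2471 ± 126 CPM against 2720 ± 116 CPM (mean ± SD, n = 3). Its log2 fold change was -0.14 ± 0.08 (edgeR adjusted p = 0.797).

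HSF1 (ENSG00000185122, chromosome 8, 144291591 to 144314722, plus strand), the factor itself, was at 60.5, 55.5 and 45.9 CPM with overexpression and at 57.7, 49.6 and 57.4 CPM in the controls. The ranges overlapped almost wholly, with a log2 fold change of -0.02 ± 0.13. This is its RNA level, and HSF1 is known to be controlled mostly at the protein. Activity was not measured. 2 comparison genes also touch a gene on the opposite strand, over a short stretch. DGAT1, over 139 bases of HSF1, was at 59.7 ± 9.70 CPM with overexpression and 48.4 ± 1.48 CPM in the controls (mean ± SD, n = 3), without overlap (log2 fold change 0.30 ± 0.13, edgeR adjusted p = 0.797). WDR20, over 197 bases of HSP90AA1, was at 9.77, 6.49 and 13.5 CPM against 8.31, 16.0 and 10.3 CPM, with overlap. Their part in the HSF1 and HSP90AA1 values was not tested.

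**Figure D2:**
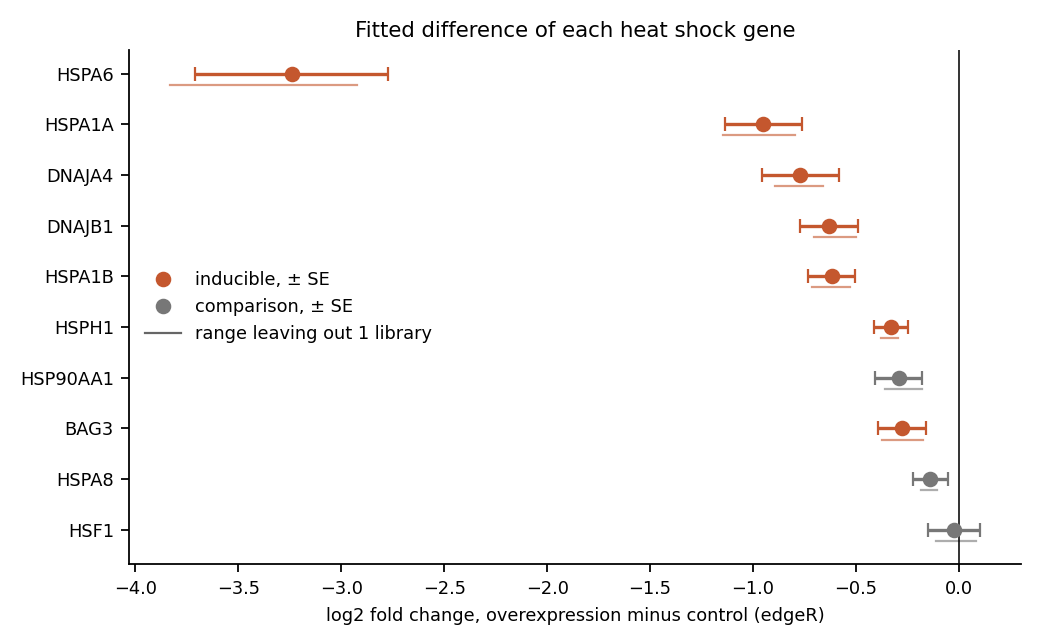
Fitted log2 fold change of each gene (x axis, overexpression minus control) with its SE; the thin line below each point spans the fits that left out 1 library. HSPA6 lies at -3.24, the other inducible genes between -0.95 and -0.28, and HSP90AA1 at -0.29 among them.

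The difference was next read within each library, as the mean centred log2(CPM + 0.5) of the inducible genes minus that of the comparison genes. It was -0.53, -0.34 and -0.09 with overexpression and 0.17, 0.45 and 0.34 in the controls. Overexpression replicate 3 and control replicate 1 were the nearest to each other. Without HSPA6 the values were -0.40, -0.22 and -0.03 against 0.12, 0.28 and 0.24, also without overlap. The genes and their split were chosen on this contrast, so nothing is read from the separation. The highest value of a gene fell in control replicate 1 for 3 genes, in control replicate 2 for 2, in control replicate 3 for 4 and in overexpression replicate 1 for HSF1. Leaving out control replicate 1, the library with the highest mitochondrial share, gave a median log2 fold change of -0.71 for the inducible genes.

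Levels between genes were compared per kilobase of merged exon length in the controls. HSP90AA1 was the most abundant at 499 ± 63.7 CPM per kb and HSPA8 followed at 334 ± 17.6 CPM per kb (mean ± SD, n = 3). HSPH1 at 52.7 ± 3.17, DNAJB1 at 50.6 ± 5.79 and HSPA1A at 39.1 ± 6.62 CPM per kb formed a middle group in which neighbours overlapped. HSPA1B at 28.2 ± 3.70 and BAG3 at 26.4 ± 3.60 CPM per kb overlapped as well. HSF1 was at 10.3 ± 0.866 CPM per kb, and DNAJA4 at 1.50 ± 0.244 and HSPA6 at 1.12 ± 0.367 CPM per kb were the lowest, again with overlap. The inducible genes were thus all below HSPA8 in the controls, yet 5 of the 7 were above HSF1. Both statements hold in the deposited FPKM too, but the order within the middle group does not. There HSPH1 was at 29.2 ± 1.47, HSPA1B at 27.9 ± 3.99, BAG3 at 24.0 ± 3.25, DNAJB1 at 23.8 ± 2.96 and HSPA1A at 21.8 ± 3.36 FPKM (mean ± SD, n = 3). HSPA1A thus moved from above to below HSPA1B and BAG3, and HSPA6 at 1.11 ± 0.377 FPKM was above DNAJA4 at 0.788 ± 0.130 FPKM. The gene lengths behind the FPKM are not stated in the sources used here, but the deposited counts and FPKM imply them. HSPA1B and HSPA6 kept nearly the same value on both scales, while HSPA1A, DNAJB1, HSPH1 and DNAJA4 were clearly lower in FPKM. For these lower genes the implied length was longer than the merged exon length. Which length suits the transcripts present was not tested, so the order of these genes is not fixed.

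The spread within groups was set against genes of similar abundance (mean CPM within 2-fold). The genes were chosen with earlier results of these data known, which can depend on this spread, so the ranks are a description. For HSPA1A the SD around the group means was 0.29 on the log2 scale, and 3928 of 4354 such genes had a smaller one. The summed HSPA1A and HSPA1B, which do not depend on the uncertain split of reads, had an SD of 0.14, with a smaller one in 1753 of 2943 genes. DNAJB1 was also among the more variable, with a smaller SD in 2079 of 2551 genes. HSPH1 was among the steadier, with an SD of 0.06 and a smaller one in 102 of 815 genes. HSPA1B, near the middle, had an SD of 0.14.

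**Figure D3:**
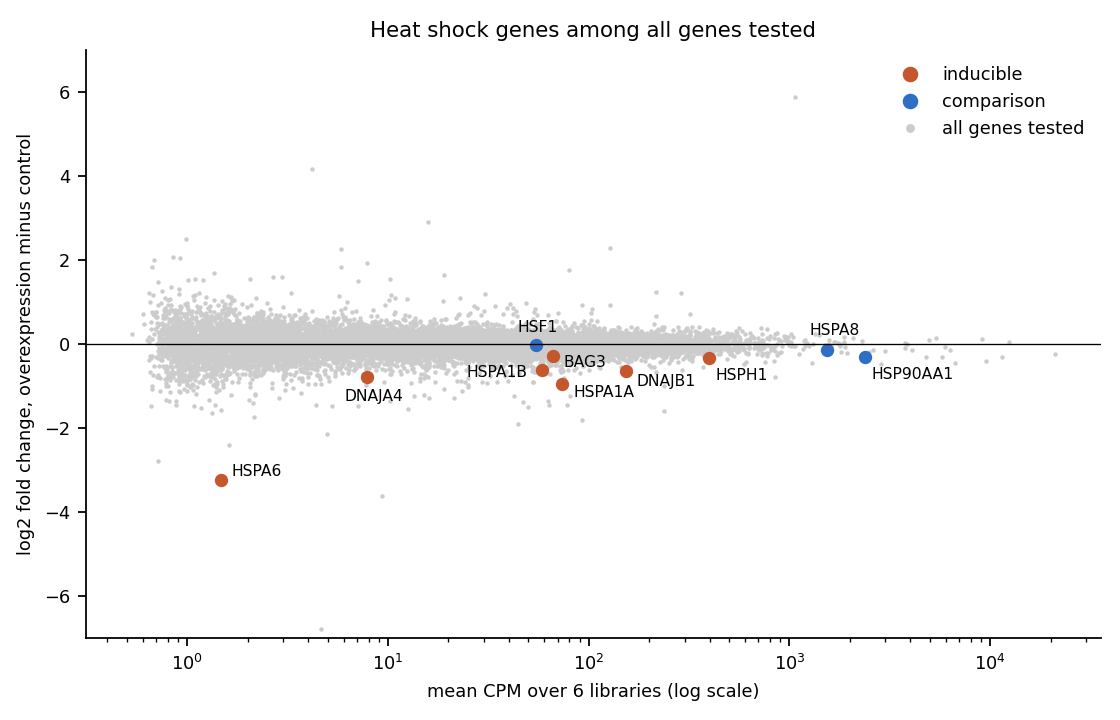
Log2 fold change (y axis, overexpression minus control) against mean CPM over the 6 libraries (x axis, log scale) for the 15055 genes tested, with the 10 heat shock genes marked. Only 2 genes lie below HSPA6, and HSF1 lies near 0.

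Other targets and partners of the response were examined as lists, by their counts and medians. Of 20 other genes listed here as driven by HSF1, which was not tested, 16 had a negative and 4 a positive log2 fold change, with a median of -0.13. Over all 15055 genes tested, 7454 were negative. None passed an adjusted p under 0.05 in edgeR's test. DNAJB4, an HSP40, was the 1 gene of the 20 with an unadjusted p under 0.05 and lower, where 3.08% of all genes were. It was at 50.5 ± 4.42 CPM with overexpression and 64.0 ± 1.92 CPM in the controls (log2 fold change -0.34 ± 0.10, edgeR adjusted p = 0.797). 4 of the 20 lay below the controls without overlap, beside 6.5% of all genes. The 3 with the largest log2 fold changes were the small heat shock protein HSPB8 (-0.45 ± 0.21), the crystallin CRYAB (-0.43 ± 0.28) and the HSP70 relative HSPA1L (-0.40 ± 0.31), and the groups overlapped in each. HSPA1L contains 110 of the 2476 31-base words of the more abundant HSPA1A, so its own level is uncertain.

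The 25 other cytosolic chaperones and co-chaperones had a median of 0.02, with 15 positive and 10 negative values. Here too edgeR called none at an adjusted p under 0.05. 2 of the 25 had an unadjusted p under 0.05 and were higher, beside 2.42% of all genes. These were STUB1, the ubiquitin ligase that binds HSP70, at 0.34 ± 0.14, and CDC37, the HSP90 co-chaperone for kinases, at 0.31 ± 0.13 (edgeR adjusted p = 0.797 for each). HSPA2 had the third largest value, 0.28 ± 0.22. This list stood near all genes, whose median was 0.0023.

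Among 11 heat shock factors and HSF1 regulators, 5 values were positive and 6 negative, with a median of -0.07 and no gene at an adjusted p under 0.05 in edgeR. The acetyltransferase EP300 (-0.42 ± 0.17) and the kinase GSK3B (-0.22 ± 0.10) were the 2 with an unadjusted p under 0.05, both lower, beside 3.08% of all genes, and HSF4, a factor best known from the lens, had the largest value at 0.45 ± 0.20. The 22 genes of other stress arms (unfolded protein, oxidative, metal and DNA damage responses) split into 11 positive and 11 negative, with a median of -0.01 and again none called. The heme oxygenase HMOX1 was at 0.26 ± 0.10 and the early gene EGR1 at -0.41 ± 0.15, the 1 gene in each direction with an unadjusted p under 0.05, beside 2.42% of all genes higher and 3.08% lower. GADD45B was at -0.29 ± 0.18. DESeq2 called no gene of these 4 lists either.

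**Figure D4:**
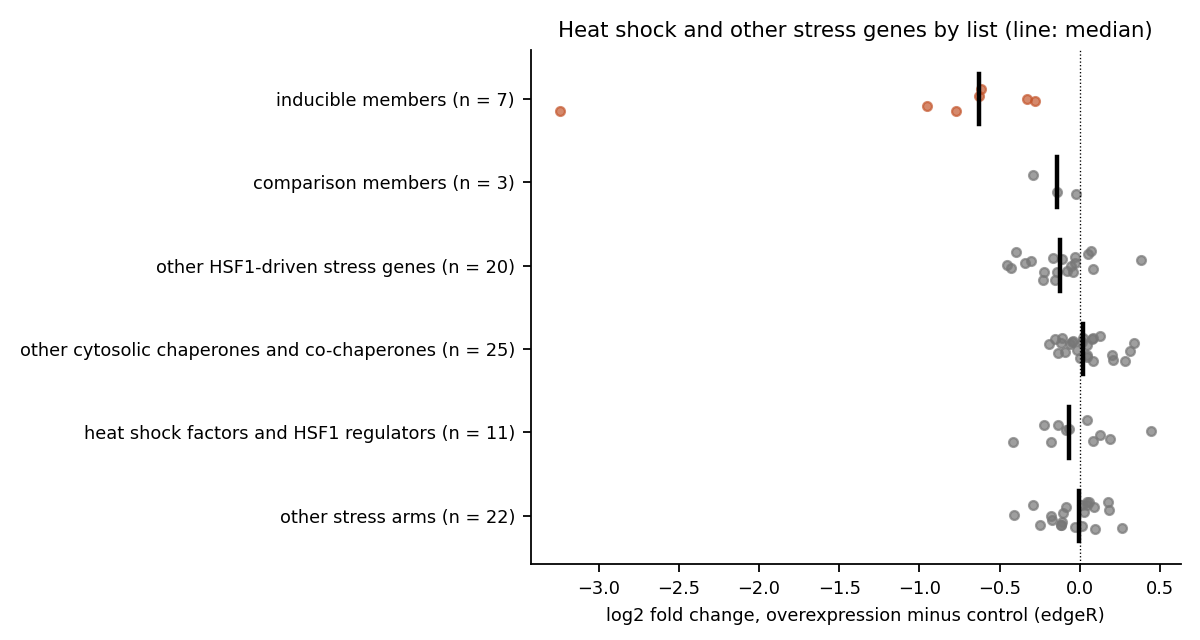
Fitted log2 fold change (x axis) of each gene tested in 6 lists; the black line is the list's median. The inducible genes have a median of -0.63, and the other lists lie between -0.14 and 0.02.

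Finally, the genes whose profile over the 6 libraries was most like the mean centred log2 profile of the 7 inducible genes were found by the root mean square difference, among 11489 genes of at least 5 CPM. Among the 5 nearest were SUCO (0.12), EYA4 (0.13), CDH1 (0.13) and LARP6 (0.14). SUCO, the nearest, was at 48.1, 61.6 and 59.5 CPM with overexpression and at 89.1, 83.5 and 95.1 CPM in the controls. HSPA1B was as near to that mean, of which it is a part, at 0.14. The other inducible genes were farther from it, from 0.17 for DNAJA4 to 0.66 for HSPA6. Among the 5 nearest to HSPA1A alone were ZBTB20 (0.17), GORASP1 (0.20), RALGAPA1P (0.21) and RASAL2 (0.22). HSPA1B lay farther from HSPA1A, at 0.36. The 10 heat shock genes themselves had been left out of the search.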

How the data were processed

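Total RNA of 6 Huh7 samples (3 overexpression, 3 control) was sequenced by the authors. The submitters' processing notes name TopHat2 (2.0.9) and hg38, while the counting tool, the annotation release and the strand setting are not given in the sources used here. The deposited table holds raw read counts per gene and FPKM values computed by the authors. The span of all 10 members was the same in GENCODE 29 (GRCh38).

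Counts were filtered with filterByExpr (minimum count 10), which left 15055 genes and all 10 members, scaled by TMM and tested with edgeR (4.0.16, R 4.3.3) by the quasi-likelihood test, two-sided, with Benjamini-Hochberg adjustment over all genes. HSPA6 passed this filter through its control counts only. The script was tested on simulated data. Alternatives used DESeq2 (1.42.0), limma (3.58.1) on log2(FPKM + 1) of the deposited FPKM, other normalizations, filters and left-out libraries. The members and the lists were chosen with earlier results of these data known, so the members' counts of calls from the fit over all genes are given as a description only, beside the share of all genes called. All members were named, and of each other list the 3 genes with the largest absolute log2 fold change at a mean of at least 1 CPM. DNAJB4 (unadjusted p) and HSP90AB1 (the paired HSP90 gene) were added after their values were seen, as were the genes that overlap a member. The nearest genes were the 5 with the smallest profile difference, of which 1 is not reported here.

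With 3 libraries a group, precision is set by the spread between libraries, a biological coefficient of variation of 16.1% over all genes.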

Additional observations from a re-analysis of the deposited data

How the results depend on the processing

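Under the alternatives, 143 of 146 members' log2 fold changes were negative, and the 3 others were those of HSF1. The alternatives refit the same chosen genes on the same libraries, so this tally shows only how far the processing matters. The median of the 7 inducible genes stayed between -0.71 and -0.54 when 1 library was left out, the latter without control replicate 3. Leaving out overexpression replicate 3 took HSPA6 to -3.83, and without overexpression replicate 1 it was at -2.92. HSF1 ran from -0.11 to 0.08. Members called numbered 0 in edgeR, 4 in DESeq2 and 1 (HSPA6) with no filter beyond 1 count, and the cause was not tested. With no filter beyond 1 count, 6 genes were called higher and 3 lower of 27086. Over all genes, 4 were called higher and 2 lower. DESeq2 called 8 and 20, and leaving out 1 library gave 1 to 7 higher and 2 to 9 lower. A correction for transcript length and GC content, chosen after seeing the data, called 2 higher and 2 lower.

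Same-numbered libraries did not deviate together, with correlations of -0.036, -0.023 and -0.031 over 15055 genes. No pairing by number was thus seen, but these values cannot tell whether same-numbered samples were handled together. With the replicate number as a block 2 genes were called higher and 2 lower, no member was called, and the inducible median was -0.64. HSPA6 has no value in limma on FPKM or at a mean of at least 50 counts, and DNAJA4 has none in limma on FPKM, since their levels are too low. With HSPA1A and HSPA1B summed, the median over 6 inducible genes was -0.70. At 11 counts over 3 libraries, depth limits the fold change of HSPA6.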
